A study of Xenopus laevis with 8 samples.

Results

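Solute carriers are membrane proteins that move sugars, amino acids, ions, metals, nucleotides, vitamins and lipids across the plasma membrane and the membranes of organelles. Their genes were followed here in head and tail fragments of embryos of the frog Xenopus laevis. They were chosen by name: a probe set was taken when its array symbol, without the closing L or S of the gene copy, had the form slc, a number, a and a number, or began with slco. This gave 95 of the 6504 genes named on the array, measured by 121 of its 15491 probe sets (controls left out), and no slco gene was among them. Of the 121, 82 were annotated to the L copy, 38 to the S copy and 1 to neither. A further 10 probe sets with slc symbols, such as those of the slc35b, slc35c and slc8b families, fell outside the rule and were not counted.

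The samples were untreated embryos at stage 18, a late neurula, cut into a head and a tail fragment. The array count was 4 per fragment. Heads 1 to 3 and tails 1 to 3 were single embryos, and head 4 and tail 4 were each a pool of embryos whose number the labels do not give. The labels do not state clutches or which head and tail came from the same embryo, so p-values cover only the spread between these samples. Of 12 head marker probe sets tested, among them ag1.L of the cement gland and six6.L of the eye field, 11 were higher in heads. All 6 tail marker probe sets tested, among them tbxt.S and hoxa7.L, were higher in tails. These markers were chosen with earlier results of these data known, so they are no independent check of the labels. The array medians lay between 327 and 390 units of intensity, and with so few arrays the precision is limited.

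Carriers set what a cell can take up, export or exchange. Glucose carriers of the slc2a family in the plasma membrane move sugar down its gradient. Most amino acid carriers exchange amino acids or use the sodium gradient. The mitochondrial family links metabolism in the matrix with the cytosol. An early frog embryo takes no food and lives on yolk, which its cells carry with them. Because whole fragments were measured, fewer cells of a type and less RNA per cell cannot be told apart.

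Of the 121 probe sets, 86 had a mean log2 signal above 7.86, the 40th percentile of the array, and were tested, for 72 genes. The other 35 were too dim for the test, and 23 genes had no tested probe set. Only 3 of the 86 (3.49%) passed an adjusted p of 0.05 in limma, against 4.62% of all 9295 probe sets tested. One, slc43a2.L, was higher in heads (1.16%, against 2.00% of all probe sets), and 2, slc22a5.L and slc37a4.L, were higher in tails (2.33%, against 2.61%). The share called was thus near that of the array as a whole. Of the 86, 12 (14.0%) had heads and tails that did not overlap, against 11.7% of all probe sets, and 16 (18.6%) had an unadjusted p under 0.05, against 17.5%. A change of 2-fold or more was seen in 4 (4.65%), against 6.26%. The median log2 change, heads minus tails, was 0.06 for the carriers and 0.06 for all probe sets. Of the 86 changes, 48 were positive and 38 negative, against 5208 and 4087 of all 9295. For 59 of the 86 the 95% confidence interval of the change lay wholly within a factor of 2 in either direction. The median half-width of all 86 intervals was 0.55 on the log2 scale. The first array of each tissue was most often at an end of its group, for carriers and for all probe sets alike. Head replicate 1 was the lowest head for 27 of the 86 carriers (31.4%, against 33.3% of all probe sets) and the highest for 30 (34.9%, against 29.6%). Tail replicate 1 was the lowest tail for 31 (36%, against 35%) and the highest for 26 (30.2%, against 33.7%). Without both arrays numbered 1, 6 carriers passed (6.98%), as did 7.35% of all probe sets. The 3 above were among the 6.

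**Figure D1:**
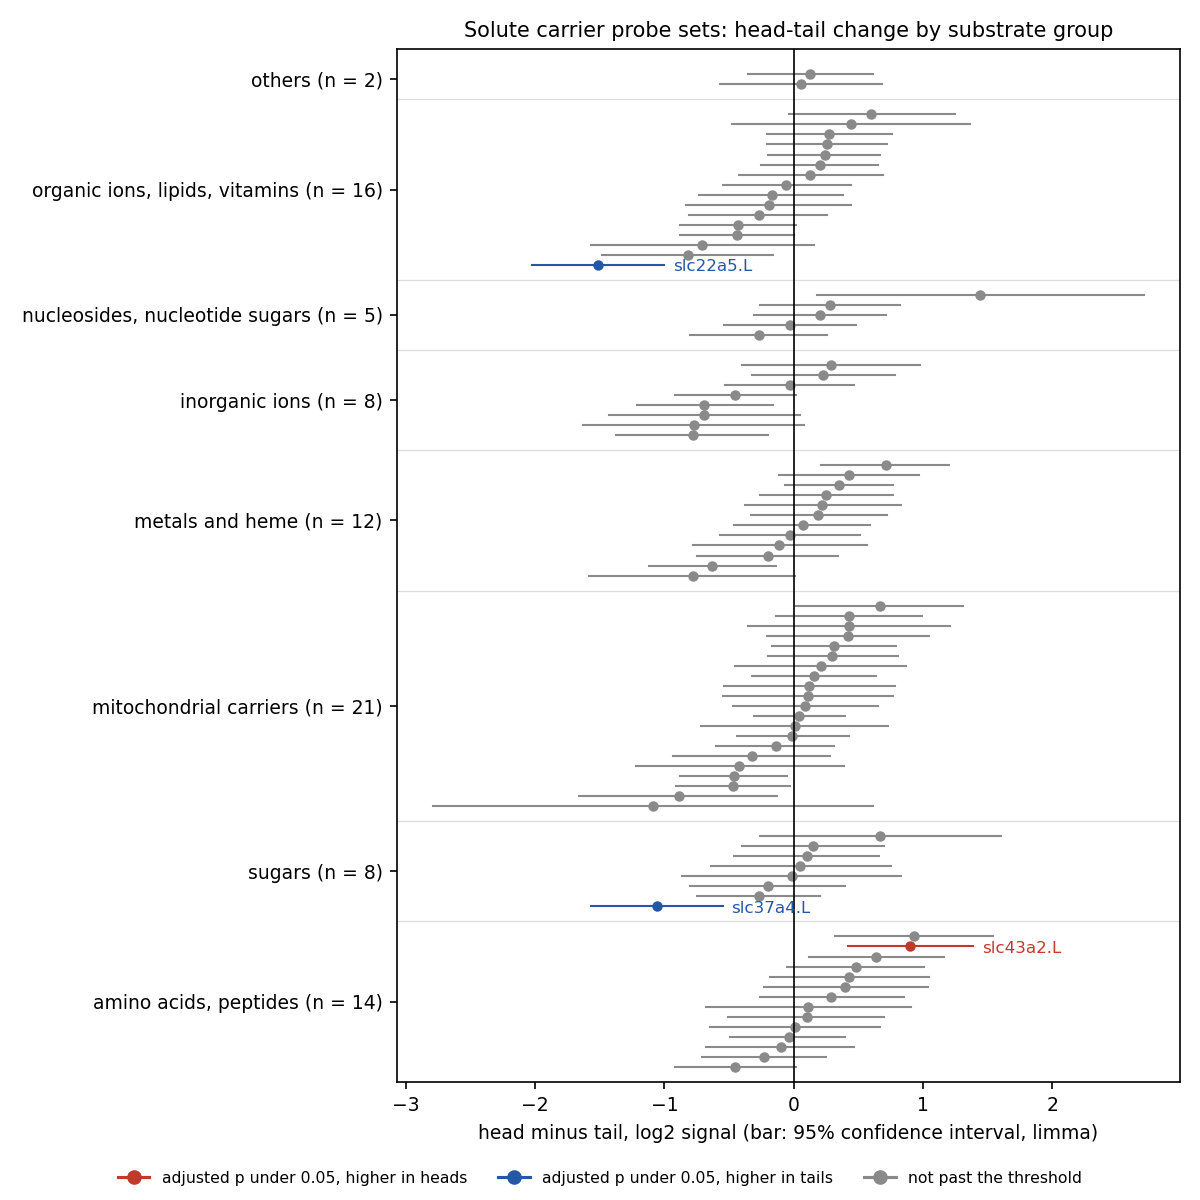
Head minus tail difference in log2 signal (x axis) of each of the 86 tested solute carrier probe sets, 1 line per probe set, arranged by substrate group on the y axis; points are the differences of the means of 4 heads and 4 tails, and bars are 95% confidence intervals from limma. The inorganic ion group also holds the carboxylate carriers slc13a3.L and slc5a8.1.L, and the mitochondrial group also holds the peroxisomal slc25a17. Apart from slc22a5.L and slc37a4.L on the tail side and slc43a2.L on the head side, no probe set passed an adjusted p of 0.05.

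Among carriers of organic ions, vitamins and lipids, the carnitine transporter gene slc22a5.L was higher in tails. Carnitine carries fatty acids into mitochondria for burning, and this gene's protein brings carnitine into the cell with sodium. The log2 signal of its first probe set was 8.92, 8.97, 8.67 and 8.75 in head replicates 1 to 4 and 10.16, 10.89, 10.16 and 10.15 in tail replicates 1 to 4. Every tail lay above every head, and tail replicate 2 stood above the other tails. Heads averaged 8.83 ± 0.14 and tails 10.34 ± 0.37 (SD, n = 4 each), 2.85-fold higher in tails, with a log2 change of -1.51 (SE 0.23, 95% confidence interval -2.02 to -1.0, limma adjusted p = 0.00309). The call held in all 20 alternatives, with changes from -1.60 to -1.33.

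A second probe set of the same gene gave 9.89, 10.30, 9.70 and 10.12 in heads and 10.36, 11.75, 10.64 and 10.55 in tails. The tissues again did not overlap and tail replicate 2 was again the highest. The change of -0.82 was smaller and did not pass (limma adjusted p = 0.172), and without tail replicate 2 it was -0.52 (adjusted p = 0.312). Both probe sets come from the same sequence cluster by their names and are not independent, and the suffix of the second marks probes that may bind other transcripts.

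The related slc22a4.L, whose mammalian protein carries ergothioneine and organic cations, gave 11.29, 9.56, 9.67 and 9.67 in heads and 10.53, 10.15, 10.93 and 11.42 in tails. Head replicate 1 lay far above the other heads and among the tails. The change was -0.71 (adjusted p = 0.399), and -1.12 (adjusted p = 0.0557) without that array. Over 20 alternatives it ran from -1.20, without both arrays numbered 1, to -0.36, in the single-embryo arrays, and it passed in the first of these (adjusted p = 0.0378) and with array weights (-1.01, adjusted p = 0.0435). Those 2 settings called 7.35% and 13.2% of all probe sets. In the others the adjusted p of slc22a4.L reached 0.778. The mitochondrial partner in this route, slc25a20.L, which exchanges carnitine and acylcarnitine across the inner membrane, had a change of 0.31 (adjusted p = 0.528) with overlapping tissues. The fatty acid transport genes slc27a2.L and slc27a6.L had changes of -0.17 and 0.20 (adjusted p = 0.792 and 0.693).

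Among sugar carriers, slc37a4.L was higher in tails. Its protein moves glucose-6-phosphate into the endoplasmic reticulum, where free glucose is made in the last step of gluconeogenesis and glycogen breakdown. Log2 signals were 12.50, 12.20, 12.60 and 12.30 in heads and 14.11, 13.22, 13.34 and 13.17 in tails. The tissues did not overlap, and tail replicate 1 was the highest. Heads averaged 12.40 ± 0.18 and tails 13.46 ± 0.44 (SD, n = 4 each), 2.09-fold higher in tails, with a change of -1.06 (SE 0.23, 95% confidence interval -1.57 to -0.55, limma adjusted p = 0.0238). The adjusted p rose to 0.0827, 0.0509, 0.0671 and 0.0664 without head replicates 2, 3 and 4 and tail replicate 3, and to 0.0679 in the 6 single-embryo arrays, while the change stayed between -1.16 and -0.84 in all 20 alternatives.

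Of 8 endoderm marker probe sets tested, 7 had a negative change and 1 a positive one. Those of darmin.L and sox17b.1.S were higher in tails (3 probe sets past the threshold) and gata4.L was higher in heads. The summed signal of all 10 endoderm marker probe sets, in which bright ones weigh most, ran from 13820 to 21070 units in heads and from 32130 to 40260 in tails. The part of endoderm cells in the differences of slc22a5.L and slc37a4.L was not tested. Summed signals of muscle markers overlapped, at 43960 to 61900 units in heads and 39120 to 86910 in tails, with 1 of 13 tested probe sets, that of the muscle regulator gene myf5.L, higher in tails. Of the 13, 10 had a negative change, with a median of -0.18. The summed signals of pronephros markers overlapped as well, at 2222 to 3091 units in heads and 1704 to 3711 in tails, with 1 of 4, gata3.S, higher in heads and the other 3 negative.

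**Figure D2:**
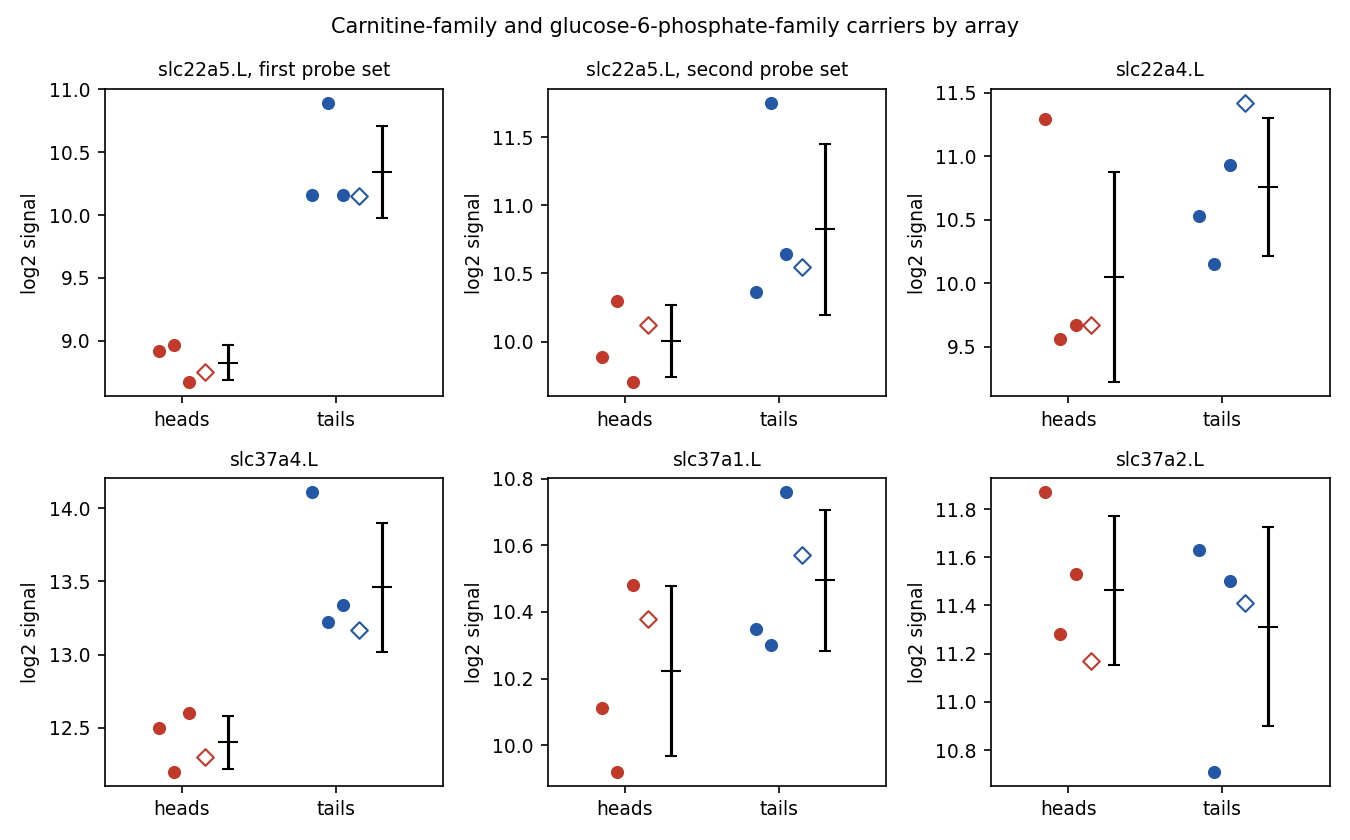
Log2 signal (y axis, a separate range in each panel) of slc22a5.L (2 probe sets), slc22a4.L, slc37a4.L, slc37a1.L and slc37a2.L in heads and tails; circles are single embryos in the order of replicates 1 to 3, open diamonds are pools, and the black mark and bar are the mean and SD of 4 arrays. Heads and tails are apart for both slc22a5.L probe sets and slc37a4.L and overlap in the other panels.

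The other sugar carriers showed no difference past the threshold. The relatives of slc37a4 had changes of -0.27 for slc37a1.L, 0.15 for slc37a2.L and 0.05 for slc37a3.L (adjusted p = 0.584, 0.824 and 0.952), all with overlapping tissues. The gene slc2a1 encodes the glucose carrier that most cells use for basal uptake, and its 2 L-copy probe sets disagreed in size: 0.67 for the first (95% confidence interval -0.26 to 1.6, adjusted p = 0.473) and -0.01 for the second (-0.86 to 0.83, adjusted p = 0.993). The liver-type glucose carrier gene slc2a2.L had a change of -0.20 (-0.80 to 0.40, adjusted p = 0.775). Of the 16 sugar probe sets 8 were too dim to test, among them slc2a3.L, slc2a4.L, slc2a6.L, slc2a10.S and both copies of slc2a9. With no filter, slc2a4.L, the insulin-responsive glucose carrier, had a change of 1.11 (95% confidence interval -0.14 to 2.36, adjusted p = 0.420).

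Amino acid carriers had 14 probe sets tested, and 13 did not pass, while 4.62% of all probe sets did. The 1 that passed, slc43a2.L, was higher in heads. Its protein lets large neutral amino acids such as leucine and phenylalanine cross the membrane without sodium. The log2 signal was 10.71, 10.33, 10.35 and 10.35 in heads and 9.89, 9.67, 9.26 and 9.31 in tails. The lowest head lay above the highest tail, and head replicate 1 stood above the other heads. Heads averaged 10.44 ± 0.18 and tails 9.53 ± 0.30 (SD, n = 4 each), 1.87-fold higher in heads, with a change of 0.90 (SE 0.22, 95% confidence interval 0.42 to 1.39, limma adjusted p = 0.0396).

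This call lay close to the threshold. It was lost in 10 of 20 alternatives: the adjusted p was 0.0555 after quantile normalization, 0.0774 after median centring and 0.163 in the single-embryo arrays. Leaving out head replicate 1, 2, 3 or 4 gave 0.0749, 0.0916, 0.0979 and 0.0835, and leaving out tail replicate 2, 3 or 4 gave 0.0743, 0.149 and 0.0944. The change stayed between 0.81 and 1.02 throughout. The S copy, slc43a2.S, averaged 5.09 in heads against 4.98 in tails on the log2 scale, under the filter.

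The light chains of the L-type exchangers, which trade large neutral amino acids across the plasma membrane, came next. The S copy of slc7a8 gave 11.37, 10.64, 10.89 and 10.33 in heads and 10.08, 9.37, 10.31 and 9.75 in tails. All heads lay above all tails, head replicate 4 only just above tail replicate 3, and the change of 0.93 did not pass (95% confidence interval 0.32 to 1.54, limma adjusted p = 0.0948). The L copy of the same gene had a change of -0.04 (-0.49 to 0.40, adjusted p = 0.940). The light chain gene slc7a5.L gave 9.89, 9.27, 9.45 and 9.48 in heads and 8.65, 9.27, 8.61 and 9.0 in tails. Head replicate 2 and tail replicate 2 were nearly equal there, and the change was 0.64 (adjusted p = 0.181). It passed in 1 of 20 alternatives, with array weights (0.69, adjusted p = 0.0486), which called 13.2% of all probe sets. In the others its adjusted p reached 0.422. The heavy chain that both light chains need, slc3a2.S, had a change of -0.10 (-0.68 to 0.47, adjusted p = 0.884), with head replicate 1 at 12.19 above the other heads, 11.15 to 11.32. The L copy of slc3a2 was under the filter.

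The sodium-coupled glutamine carrier gene slc38a5.S lay on the other side, at 9.45 to 9.68 in heads and 9.71 to 10.40 in tails, with a change of -0.45 (adjusted p = 0.311). Its relative slc38a2.L had a change of -0.23 (adjusted p = 0.660). Genes of other amino acid routes did not pass either: 0.48 for slc7a3.L, a carrier of cationic amino acids, 0.43 and 0.11 for the L and S copies of slc1a5, a neutral amino acid exchanger, 0.29 for the peptide carrier slc15a2.L and 0.40 for slc6a14.2.L. Of the 14, 10 had a positive change, against 5208 of all 9295 probe sets, with a median of 0.20 against 0.06 for all probe sets. The mean log2 signal over the 14 ran from 10.19 to 10.52 in heads and from 9.89 to 10.20 in tails, so the tissues overlapped. The gene of the vesicular carrier of inhibitory transmitters, slc32a1.S, was under the filter, at 7.53 to 7.67 in head replicates 2 to 4, 2.99 in head replicate 1 and 4.58 to 6.99 in tails.

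**Figure D3:**
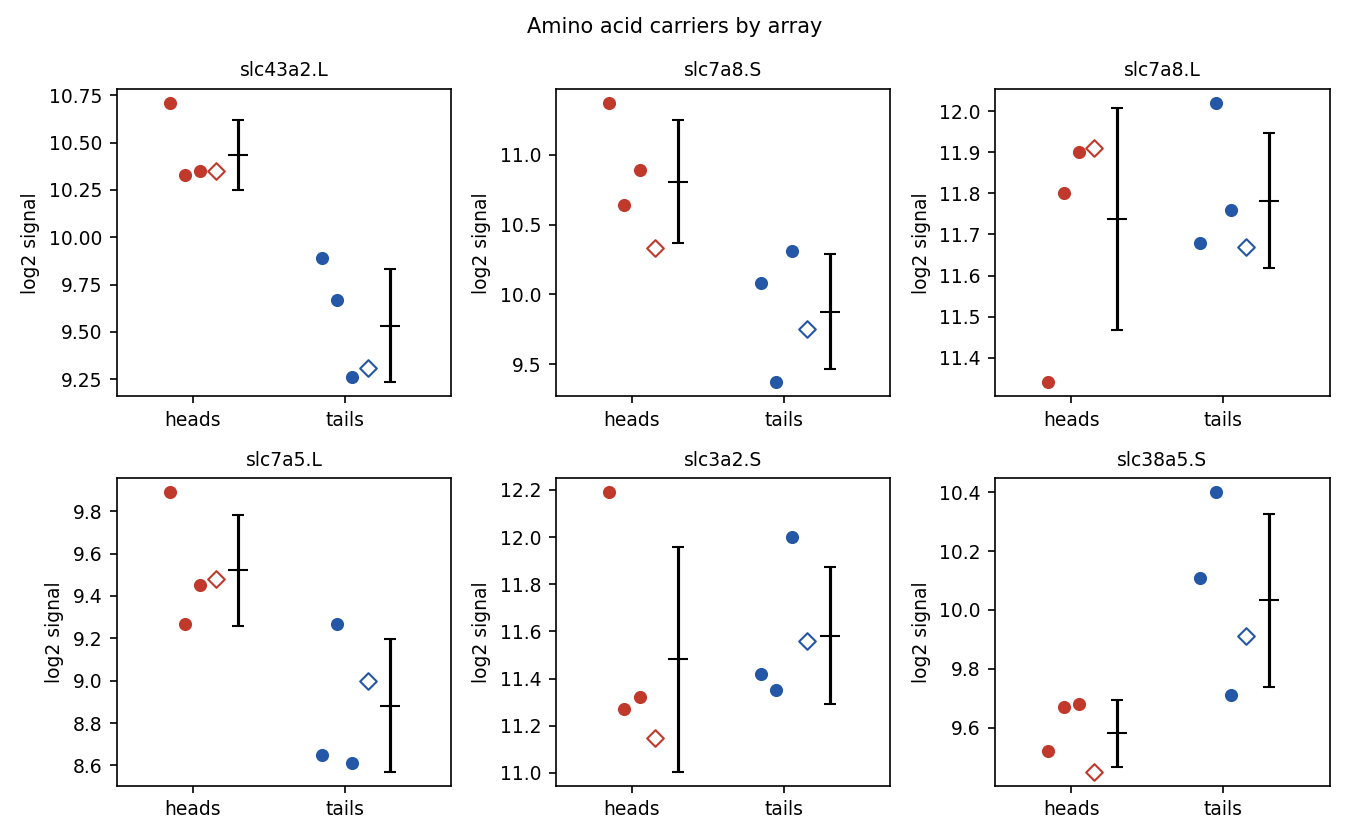
Log2 signal (y axis, a separate range in each panel) of slc43a2.L, both copies of slc7a8, slc7a5.L, slc3a2.S and slc38a5.S in heads and tails; circles are single embryos in the order of replicates 1 to 3, open diamonds are pools, and the black mark and bar are the mean and SD of 4 arrays. Heads lie above tails for slc43a2.L and slc7a8.S and below them for slc38a5.S, while slc7a8.L and slc3a2.S overlap.

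No probe set of the ion carrier group passed, of 8 tested, against 4.62% of all probe sets. The group held mostly inorganic ion carriers, but also slc13a3.L and slc5a8.1.L, carriers of dicarboxylates and monocarboxylates. Its median change was -0.57, against 0.06 for all probe sets. Negative changes were 6 of 8, against 4087 of all 9295. The mean log2 signal over the 8 ran from 9.83 to 10.40 in heads and from 10.41 to 10.60 in tails. The anion exchanger gene annotated slc26a4l.L gave 13.33, 12.14, 12.49 and 12.47 in heads and 13.77, 13.17, 13.56 and 13.08 in tails. Head replicate 1 lay within the tails, and the change was -0.78 (95% confidence interval -1.37 to -0.20, limma adjusted p = 0.142), or -1.02 (adjusted p = 0.0264) without that array. The probe set passed in 4 of 20 alternatives, with adjusted p from 0.0123 to 0.358 over the 20. A list of skin cell markers, most of them of ionocytes and ciliated cells, had 7 probe sets tested and none past the threshold in limma. The 1 with an unadjusted p under 0.05 was foxa1.S, which is not a marker particular to those cells. Of the 7, 6 had a negative change and 1 a positive one, with a median of -0.18. The change was -0.76 for foxa1.S and -0.54 for the ionocyte regulator gene foxi1.L (limma adjusted p = 0.173 and 0.557). The summed signal of the 7 overlapped, at 37970 to 59380 units in heads and 39310 to 51640 in tails. Most of it was that of tubb4b.L (24860 to 41170 units over the 8 arrays), the 1 marker with a positive change, 0.27. The part of skin cells in the ion carriers' values was not tested.

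The chloride and bicarbonate exchanger gene slc4a1.L, best known from red blood cells, gave 8.04 to 8.82 in heads and 8.88 to 9.34 in tails, with no overlap and a change of -0.69 (adjusted p = 0.155). Blood and vessel markers had 3 probe sets tested, of which lmo2.S and aplnr.S were higher in tails. The summed signal of their 10 probe sets was 2545 to 2873 units in heads and 4747 to 5629 in tails, and the globin genes hba1.S and hba3.L and both copies of gata1 were under the filter. Their part in the value of slc4a1.L was not tested. The other ion carriers ranged from -0.77 for slc26a6, an anion exchanger, through -0.69 for slc13a3.L, a dicarboxylate carrier, and -0.45 for the phosphate carrier slc20a1.L, to 0.29 for slc5a8.1.L, a monocarboxylate carrier (adjusted p = 0.340, 0.324, 0.316 and 0.711).

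Zinc, copper, magnesium and heme carriers had 12 probe sets tested and none past the threshold, against 4.62% of all probe sets. Their median change was 0.13. The largest change in size, on the tail side, was that of slc30a2.L, at -0.78 (limma adjusted p = 0.296) with overlapping tissues. The zinc exporter gene slc30a1.L gave 11.78, 12.64, 12.39 and 12.43 in heads and 11.35, 11.63, 11.57 and 11.86 in tails. Head replicate 1 lay below the highest tail, and the change was 0.71 (95% confidence interval 0.21 to 1.20, limma adjusted p = 0.120), or 0.88 (adjusted p = 0.0342) without it. The probe set passed in 4 of 20 alternatives, with adjusted p from 0.0149 to 0.313 over the 20. The magnesium carrier gene slc41a3.L had no overlap, at 10.30 to 10.73 in heads and 10.80 to 11.52 in tails, with a change of -0.63 (adjusted p = 0.155). It passed in 1 of 20 alternatives, with array weights (-0.73, adjusted p = 0.0215), which called 13.2% of all probe sets. In the others its adjusted p reached 0.352. A second slc41a3.L probe set was under the filter and had overlapping tissues (-0.56, adjusted p = 0.515 with no filter). One of the probe sets of slc39a7.L, which releases zinc from the secretory pathway, also had no overlap (0.35, adjusted p = 0.385), while the other had a change of -0.11. The zinc carrier gene slc39a9.L had a change of -0.03 (adjusted p = 0.968).

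Mitochondrial carriers, the largest group with 21 probe sets tested, had none past the threshold, against 4.62% of all probe sets. The group took every slc25a gene, also slc25a17, the peroxisomal member of the family (-0.42 and -0.32 for its L and S copies). Its median change was 0.09, with 13 positive and 8 negative changes. The gene of the ADP/ATP exchanger slc25a5.L, which exports the ATP made in mitochondria, ran from 15.58 to 16.14 in heads and from 15.62 to 15.97 in tails, with a change of 0.04 (95% confidence interval -0.31 to 0.40, limma adjusted p = 0.922). The phosphate carrier gene slc25a3.L had changes of -0.01 and 0.09 on its 2 probe sets (adjusted p = 0.993 and 0.903). For slc25a5.L and slc25a3.L the intervals left out a 2-fold difference in either direction.

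Of the 21 mitochondrial probe sets, 1 had tissues that did not overlap, against 11.7% of all probe sets. It was that of slc25a13.L, the aspartate and glutamate carrier, at 10.66 to 11.06 in heads and 11.23 to 11.45 in tails. Its change was -0.46 (limma adjusted p = 0.227). The citrate carrier slc25a1.L and the basic amino acid carrier slc25a29.L had changes of -0.47 and -0.89 (adjusted p = 0.246 and 0.204). With array weights, which called 13.2% of all probe sets, both passed (-0.65 and -1.03, adjusted p = 0.0213 and 0.0494). Without tail replicate 2, slc25a29.L passed as well (-1.25, adjusted p = 0.0367). These were the only passes, 1 of 20 alternatives for slc25a1.L and 2 of 20 for slc25a29.L. The adjusted p of slc25a1.L reached 0.544 in the others. The gene slc25a39.L, needed for glutathione import, had a change of 0.67 (adjusted p = 0.269). The widest spread of all 86 was that of slc25a22l.S, at 5.32, 9.01, 7.92 and 8.86 in heads and 9.71, 7.03, 9.47 and 9.27 in tails. Its change of -1.09 (adjusted p = 0.532) was -0.27 without head replicate 1, -1.71 without tail replicate 2 and 0.01 without both arrays numbered 1, and passed in none of its 19 alternatives.

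Of 5 nucleoside and nucleotide sugar carriers none passed, against 4.62% of all probe sets. The equilibrative nucleoside carrier gene slc29a1.S gave 8.44, 8.46, 8.58 and 9.17 in heads and 5.10, 7.44, 7.93 and 8.40 in tails. The tissues did not overlap, but tail replicate 1 was far below the other tails and under the 20th percentile of the array, 6.54. The change of 1.44 (SE 0.58, adjusted p = 0.214) was 0.74 without that array. Its relative slc29a2.L had a change of 0.28 and the nucleotide sugar carrier slc35a3.2.S of -0.27 (adjusted p = 0.625 and 0.645).

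Of the 16 organic carrier probe sets tested, 1 passed and 15 did not, while 4.62% of all probe sets passed. The group's median change was -0.12, and its mean log2 signal ran from 9.90 to 9.96 in heads and from 10.05 to 10.12 in tails. Both probe sets of slc22a5.L, at -1.51 and -0.82, are among the 16. They are not independent and weigh on these means, so the gap need not be shared by the other carriers of the group. Both probe sets of the lactate and pyruvate carrier gene slc16a1.S had changes near 0.25, at 0.26 and 0.24 (95% confidence intervals -0.21 to 0.72 and -0.20 to 0.67). The lactate carrier gene slc16a3.L had a change of -0.19 (adjusted p = 0.803). Its S copy was under the filter, at 5.70, 7.04, 3.90 and 6.95 in heads and 8.09, 7.22, 7.52 and 7.92 in tails. The tissues did not overlap there, and with no filter the change was -1.79 (adjusted p = 0.195). Head replicates 1 and 3 were under the 20th percentile of the array, 6.54. With low values raised to that level, the difference fell from 3.45-fold to 1.88-fold. The vesicular monoamine carrier slc18a1.S and the choline carrier slc44a1.L had changes of -0.43 and -0.44 (adjusted p = 0.312 and 0.282), and the riboflavin carrier slc52a1.L had 0.44 (adjusted p = 0.662). The scaffold gene slc9a3r1, named after a carrier but itself no transporter, had changes of 0.13 and 0.06 on its 2 tested probe sets.

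Xenopus laevis carries many genes as an L and an S copy, and probes for one can bind the other. There were 14 genes of the set with more than 1 tested probe set. The scaffold gene slc9a3r1 is counted in these 14 and in the genes with both copies tested. In 9 of them all changes had the same sign, and the gap between the changes of a gene ran from 0.01 to 0.98 with a median of 0.14 on the log2 scale. For 8 genes both copies were tested, and 6 of these had changes of the same sign. The copies lay closest for slc25a11 (0.42 and 0.43) and farthest apart for slc7a8, where the S copy was at 0.93 and the L copy at -0.04. The difference between copies was not tested.

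**Figure D4:**
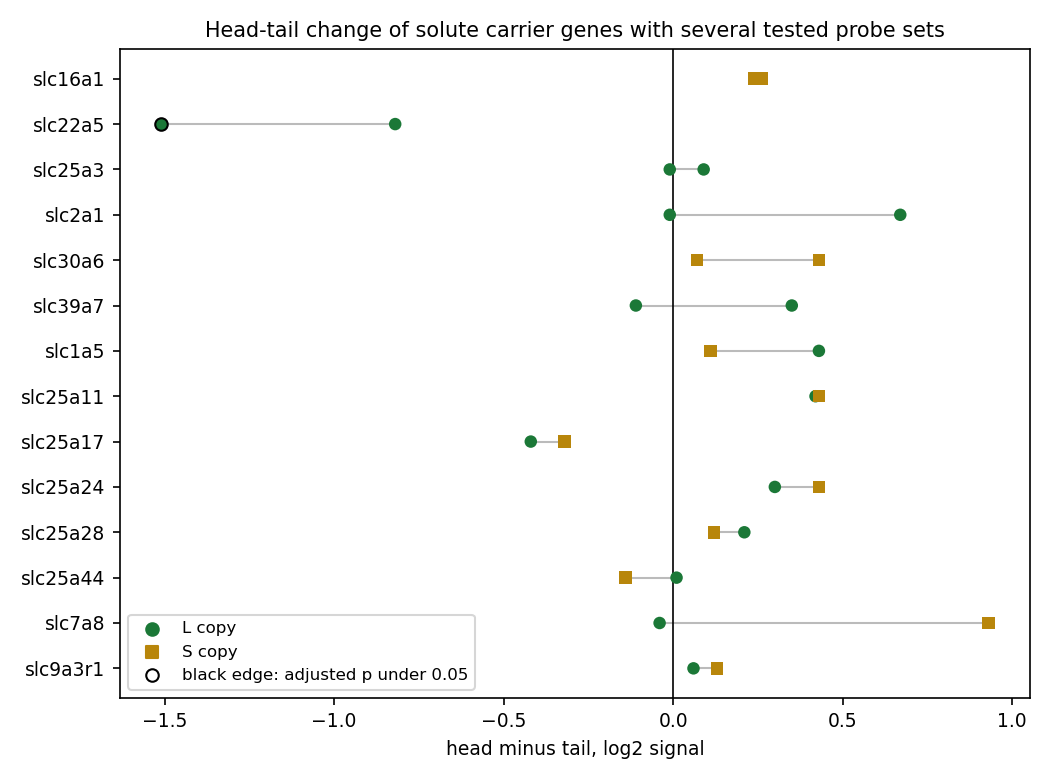
Head minus tail difference in log2 signal (x axis) of the tested probe sets of the 14 genes with more than 1, 1 gene per row. The scaffold gene slc9a3r1 is among them. Circles are L copies, squares are S copies, and a black edge marks an adjusted p under 0.05 in limma. The points of most genes lie close together, with the widest gaps for slc7a8 (0.98), slc22a5 (0.69) and slc2a1 (0.68).

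The second comparison set the 2 pools against the 6 single embryos, with tissue in the model. No carrier passed, and no probe set of the array did (0%). An unadjusted p under 0.05 was found for 7 of the 86 carriers (8.14%), against 14.8% of all probe sets. The lowest of these p-values belonged to slc2a1.L, where both probe sets were highest in the pools of both tissues. On the first the pools were at 10.80 in heads and 10.57 in tails, against 9.44 to 10.14 and 8.37 to 9.53 in single embryos, a difference of 1.28 (limma adjusted p = 0.186). On the second the difference was 1.15 (adjusted p = 0.187). Of the others, slc37a3.L was higher in the pools by 0.93 (adjusted p = 0.187), while slc30a2.L, a zinc carrier of secretory vesicles, was lower by a log2 difference of -1.06 (adjusted p = 0.188). The rest of the 7, slc35a3.2.S, slc31a2.S and slc39a9.L, were also lower in the pools. Their log2 differences were -0.69, -0.60 and -0.57 (limma adjusted p = 0.19, 0.265 and 0.288).

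The interaction of tissue and pooling asked whether the pools gave another head-tail difference than single embryos. It passed for no carrier and for no probe set of the array (0%), and no carrier had an unadjusted p under 0.05, against 0.409% of all probe sets. With 1 pool per tissue, the spread between pools is not known.

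**Figure D5:**
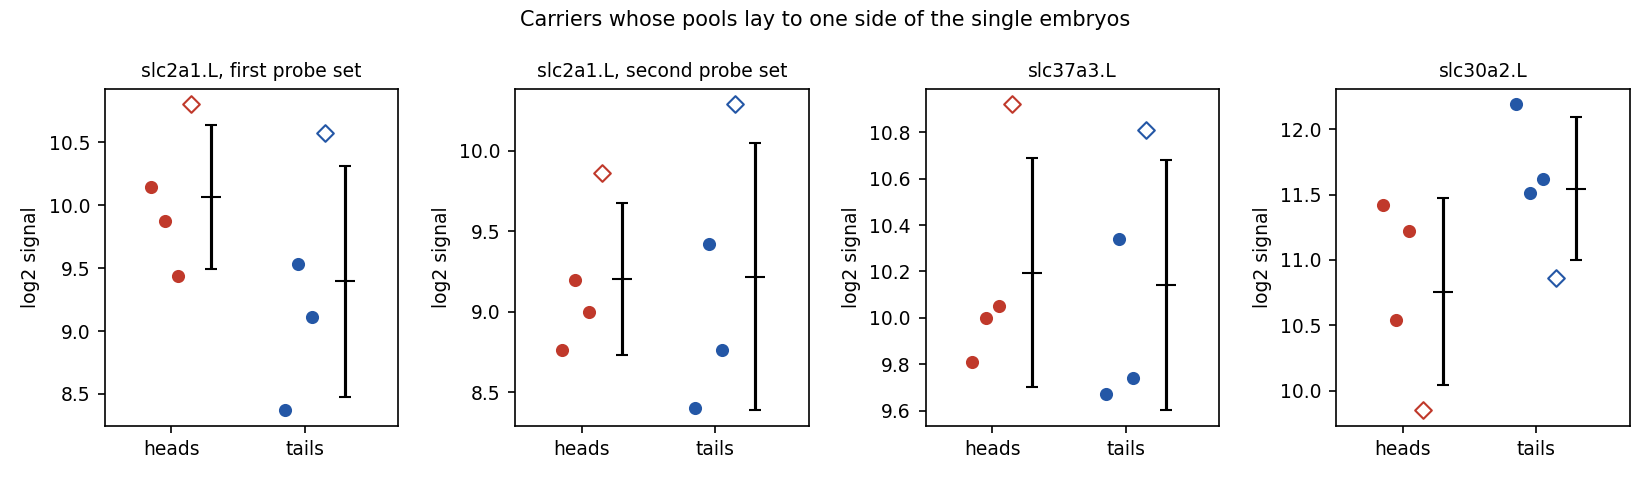
Log2 signal (y axis, a separate range in each panel) of slc2a1.L (2 probe sets), slc37a3.L and slc30a2.L in heads and tails; circles are single embryos in the order of replicates 1 to 3, open diamonds are pools, and the black mark and bar are the mean and SD of 4 arrays. The pools lie above the single embryos of their tissue for slc2a1.L and slc37a3.L and below them for slc30a2.L. Not shown are slc35a3.2.S, slc31a2.S and slc39a9.L, which were also lower in the pools.

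Genes that work beside these carriers gave no call. The ion pumps whose gradients drive many carriers, their chaperones and carbonic anhydrases had 41 probe sets tested. None passed an adjusted p of 0.05 in limma and 6 had an unadjusted p under 0.05, against 4.62% and 17.5% of all probe sets. The median change was -0.14, against 0.06 for all probe sets. There were 26 negative and 15 positive changes, against 4087 and 5208 of all probe sets. The 41 probe sets were of 26 genes, so these signs are not independent. The highest was 0.33, for a probe set of the proton pump subunit gene atp6v0d1.L, whose other probe set was at 0.04. The calcium pump gene atp2a3.L was at -0.53 (adjusted p = 0.113), and the sodium pump subunit gene atp1b3.S at -0.69 and -0.47 on its 2 probe sets (adjusted p = 0.170 and 0.277). The L copy, atp1b3.L, was at 0.03 (adjusted p = 0.966). Probe sets of the proton pump subunit gene atp6v0c.L were at -0.70, -0.44, -0.21 and -0.04 (adjusted p = 0.161, 0.396, 0.738 and 0.948). The proton pump subunit genes atp6v0a4.L and atp6v1b1.L were at -1.04 and -0.62 (adjusted p = 0.252 and 0.214). For atp6v0a4.L the tissues overlapped, with tails at 10.39 to 11.19. Head replicate 2 was at 8.07, far below the other heads at 9.9 to 10.47. A list of carriers known under other symbols included the mitochondrial pyruvate carrier genes mpc1 and mpc2 and the uncoupling protein gene ucp2. Not all of its genes are carriers: leprot, leprotl1 and the channel gene mcoln1 were also in it. The list had 18 probe sets tested. Against the same shares of all probe sets, 4.62% and 17.5%, none passed the threshold and 1 had an unadjusted p under 0.05. That was 1 of 3 probe sets of mfsd5.S, at 1.09 (adjusted p = 0.0802), and the other two were at 0.08 and 0.13 (adjusted p = 0.955 and 0.820).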

How the data were processed

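Total RNA was labelled with biotin after 2 rounds of amplification and hybridised to an Affymetrix array, per the labels' protocols. The deposited values are linear intensity values. MAS5 is the tool that the submitters' processing notes name, with no version. On every array the mean after leaving out the lowest and highest 2% was 1000, so the authors had scaled them before deposit. Detection calls were not used here. Dim MAS5 signals are noisy on a log scale.

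The 120 controls were left out of 15611 probe sets. Symbols came from the array annotation, and all 121 members matched a gene of the Xenopus_laevis_v10.1 RefSeq table with the same symbol. Positions are left out because the array's build is not named. The smallest value allowed before taking log2 was 1. Probe sets with a mean under the 40th percentile were left out. The head-tail test was limma's (version 3.58.1, R 4.3.3; lmFit and eBayes with intensity trend), two-sided, with Benjamini-Hochberg adjustment over all 9295 tested and a threshold of 0.05. The steps were tested on simulated data. A fold is 2 to the power of the difference of mean log2 values, and levels of different probe sets are not comparable.

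Members, substrate groups and lists were chosen with earlier results of these data known. Named genes were those that passed, their other probe sets, up to 10 further ones without overlap, the brightest, the most variable and some well-known carriers. Further genes (slc20a1.L, slc25a29.L, slc37a3.L, slc30a2.L and others with no difference past the threshold) were added once their values had been seen. The 20 alternatives were other filters, normalizations, low-value rules, array weights, the replicate block, other eBayes settings, single embryos only and each array left out. Leaving out both arrays numbered 1 was chosen after seeing the data.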

Additional observations from a re-analysis of the deposited data

Results flagged for a closer look

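In 80 groups of 4 arrays (40 named probe sets in each tissue), 7 held an array whose gap to its nearest neighbour made up more of the group's range than Dixon's 95% critical value allows. Chance gives about 1 such group in 20. Head replicate 1 stood apart for 3 carriers: it was at 12.19 for slc3a2.S (others 11.15 to 11.32), at 10.71 for slc43a2.L (others 10.33 to 10.35) and at 11.29 for slc22a4.L (others 9.56 to 9.67). Tail replicate 2 stood apart for 3: it was high for slc22a5.L, at 10.89 (others 10.15 to 10.16), and low for slc25a22l.S, at 7.03 (others 9.27 to 9.71), and for slc25a24.L, at 11.82 (others 12.47 to 12.52). Tail replicate 3 was low for slc4a1.L, at 8.88 (others 9.27 to 9.34).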

How the results depend on the processing

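The count of carriers higher in heads was 1, and the count higher in tails was 2. After quantile normalization and after median centring the head count was 0. In the single-embryo arrays the counts were 0 and 1, with array weights 3 and 7, and without both arrays numbered 1, 2 and 4. Leaving out 1 array gave 0 to 1 in heads and 1 to 3 in tails. The share of all probe sets called moved too, from 4.62% to 2.27% in single embryos and 13.2% with array weights. With array weights 7 carriers differed between pools and single embryos, among 1059 probe sets of the array, and in the other settings run none did. With the replicate number as a block, the counts were 3 and 4, or 8.14% of the carriers tested, against 6.83% of all probe sets. The carriers added were slc7a8.S (limma adjusted p = 0.0327), slc30a1.L, slc26a4l.L and slc30a2.L. The labels do not say that equal numbers share an embryo, and deviations of same-numbered heads and tails correlated at 0.23, 0.03, 0.02 and 0.60 over all tested probe sets, the last being the pools. Head replicate 2 correlated better with tail replicate 1 (0.18) than with its own number. Over all settings 12 carrier probe sets passed at least once, 9 of them not in the reported fit. The same count was not taken over all probe sets, so it cannot be told whether 12 is many. None of the 12 turned its direction in any setting. They were picked for passing and the settings share most arrays, so this is no independent support. Signal over background could not be examined, and 8 of 16 sugar carrier probe sets were too dim to test.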
